A study of Mus musculus with 4 samples.

Results

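The genes described here are the 8 effector cytokine genes Il17a, Il17f, Il22, Il21, Il10, Il9, Csf2 and Il24, measured by RNA sequencing in mouse Th17 cells. They were chosen by name, with earlier results of these data known, and all 8 were found among the 29383 genes with a fold change, of 55450 genes in the authors' deposited table. The cells were naive CD4 T cells from mice 8 to 12 weeks old, with the genotype given as Cas9 transgene, while the design text calls the donors wild type. Activation by antibodies (0.25 µg/mL anti-CD3ε, 1 µg/mL anti-CD28) lasted 24 h and was followed by retroviral transduction. In sgAdarb1 cultures the vector (PSIN) carried a guide against Adarb1, and in control cultures it was empty. Both groups then spent 72 h under polarizing TGF-β (0.3 ng/mL) and IL-6 (20 ng/mL), and ribosome-depleted RNA was sequenced. Each group had 2 cultures, and per the design text the 2 donor mice each gave cells to both groups. The control vector carried no guide, so Cas9 cutting as such and loss of ADAR2 cannot be told apart. Groups are as in the sample titles, which the treatment tag contradicts for 2 of the 4 samples. Which grouping lies behind the deposited fold changes could not be checked, and had the authors used that of the tag, every difference given here would compare other libraries.

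Th17 cells are the class of CD4 helper T cells that arises when TGF-β and IL-6 act on an activated naive cell, through STAT3 and nuclear receptors of the ROR family. Their signature cytokines, IL-17A and IL-17F, call neutrophils to epithelial surfaces, and IL-22 acts on the epithelium itself. IL-21 feeds back on T cells and drives B cell help, IL-10 restrains inflammation, and GM-CSF, the product of Csf2, activates myeloid cells. IL-9 acts on mast cells and epithelium, and IL-24, an IL-10 family cytokine, acts on epithelial cells. ADAR2, the product of Adarb1, is an enzyme that deaminates adenosines of double-stranded RNA.

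Il17a and Il17f had the largest estimated differences of the 8 genes, both positive, and no cytokine gene passed the test. Positive values mean higher in sgAdarb1 cultures, an order read from the design text because the numerator is unnamed in the table. With the opposite numerator all signs would be the other way round. Levels per kb, intervals, implied group means and ratios below were computed from the authors' deposited table. The standard errors of Csf2 and Il21 were close to the median of genes of like level and those of Il17a and Il24 about 1.2 times it, whereas those of Il17f, Il22 and Il10 were 2.78 to 5.19 times it. Values of single cultures are not given here, because the table's 4 columns of values per library match none of the sample labels and were not used. Whether the cultures of a group overlapped was therefore not computed.

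The promoter windows of Il17a and Il17f are shown because these neighbouring genes had the largest estimates and because both windows hold the ROR core motif AGGTCA. They run from 250 bases before to 50 bases after the RefSeq start site (GRCm38.p6), at chr1:20730655-20730954 on the plus strand for Il17a and chr1:20784221-20784520 on the minus strand for Il17f. Capitals mark AGGTCA, the AP-1 motif TGANTCA and TATAAA on either strand, and none of these matches overlap.
Il17a: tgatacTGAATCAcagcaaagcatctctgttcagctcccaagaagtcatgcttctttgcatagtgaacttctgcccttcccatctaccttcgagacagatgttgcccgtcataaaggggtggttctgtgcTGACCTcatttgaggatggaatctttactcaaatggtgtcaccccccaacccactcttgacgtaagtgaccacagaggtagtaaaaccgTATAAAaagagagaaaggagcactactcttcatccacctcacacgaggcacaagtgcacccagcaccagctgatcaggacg
Il17f: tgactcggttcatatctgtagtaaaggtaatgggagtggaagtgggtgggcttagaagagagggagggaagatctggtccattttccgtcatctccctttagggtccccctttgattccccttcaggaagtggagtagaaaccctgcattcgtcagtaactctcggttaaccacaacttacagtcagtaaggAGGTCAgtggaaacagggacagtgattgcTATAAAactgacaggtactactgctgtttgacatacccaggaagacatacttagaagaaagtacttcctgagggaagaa

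AGGTCA lay 120 bases upstream of the RefSeq start site of Il17a, read on the strand opposite to the gene. In Il17f it lay 58 bases upstream of the RefSeq start site, read on the strand of the gene. TATAAA began 31 and 29 bases upstream of the RefSeq start sites of Il17a and Il17f. Promoter windows were at hand for 6 of the 8 genes, Il10 and Il24 being the others, and AGGTCA was found in none of the windows of Il21, Il22, Csf2 and Il9. The Csf2 window (chr11:54249850-54250149, minus strand) lies wholly upstream of the gene as placed below, which starts at 54249667. Motifs missing from it thus say nothing of the bases around that start. The Il17f window lies wholly inside the gene as placed below, which on the minus strand starts at 20790617. Motif positions in the Il17f window thus hold for the RefSeq start site, not for that outer start. Of all 32851 promoter windows of this length, 16.3% held AGGTCA, 7.81% held TGANTCA (Il17a and Il9 among the 6) and 13.6% held TATAAA (Il17a, Il17f and Il22). The STAT motif TTCNNNGAA, present in 8.30% of windows, was in none of the 6, and the NFAT core GGAAA, present in 61.3%, was in all except that of Il17a. These are letter matches in short windows and say nothing of binding.

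Cytokine mRNAs are short-lived, and many carry the pentamer ATTTA in the 3′ untranslated region, which decay factors recognise. All 8 genes held it, between 3 copies in Il17f and Il9 and 9 copies in Csf2 and Il21, with 7 in Il17a, 6 each in Il22 and Il10, and 4 in Il24. Among 11947 protein-coding genes with a mean normalized count of at least 10, 69.2% held at least 1 copy and the median was 2, in a median region of 1142 bases. Per 100 bases, the pentamer was densest in Il9 (3.49) and Csf2 (2.84) and sparsest in Il21 (0.35) and Il17f (0.48), against a median of 0.13 over all these genes. The longer form TTATTTATT stood in 3 of the 8 (Csf2, Il22 and Il21), against 8.07% of all these genes. The stretch of 30 bases with the most copies is shown for 4 genes, with ATTTA in capitals, to compare how the copies are spaced. They are read 5′ to 3′ from the longest protein-coding transcript of each gene in GENCODE M21.
Il17a: ATTTAtatgagctATTTAtgaatctATTTA
Il22: tttATTTAttataagtatacattttATTTA
Il9: agatgctATTTAttctATTTAttgaATTTA
Csf2: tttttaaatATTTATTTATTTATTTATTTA

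These stretches lie at chr1:20734203-20734232 (plus strand), chr10:118209882-118209911 (plus), chr13:56479329-56479358 (minus) and chr11:54247329-54247358 (minus) in GRCm38. In Csf2 the 5 copies overlap without a break, while in Il17a and Il9 3 copies each are separated by other bases. Beside these counts, the authors' deposited table puts Csf2 and Il21, with 9 copies each, at log2 fold changes of -0.08 ± 0.13 and 0.06 ± 0.13 (SE). It puts Il17a, with 7, at 0.70 ± 0.15, and Il17f and Il9, with 3 each, at 1.11 ± 0.53 and 0.46 ± 0.96. A relation between copies and difference was not tested.

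Levels were compared per kilobase of annotated exon, as the mean normalized count over the 4 libraries divided by the union exon length. Il22 was the highest, at 4347 per kb and above 99.5% of all genes with a fold change. Csf2 followed at 2130 per kb, Il17f at 1849, Il17a at 1500 and Il24 at 1310. Below them stood Il10 at 838, Il21 at 327 and Il9 at 60.3 per kb, the last still above 72.9% of genes. The authors' deposited table gives, before division by length, means of 4826 for Il22, 3739 for Il17f, 1815 for Il24, 1756 for Il17a, 1717 for Il21, 1704 for Csf2, 1097 for Il10 and 32.3 for Il9.

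The error of a mean level over 4 libraries was approximated as the SE of the fold change divided by 2, which treats libraries and genes as independent, and levels are called apart beyond 1.96 times the combined error of the pair. Il22 stood apart above Csf2, at 2.04-fold, and Il24 stood above Il10 at 1.56-fold, Il10 above Il21 at 2.56-fold and Il21 above Il9 at 5.42-fold. The neighbouring steps Csf2 to Il17f (1.15-fold), Il17f to Il17a (1.23-fold) and Il17a to Il24 (1.15-fold) stayed within it, while Csf2 stood apart above Il17a at 1.42-fold. With the longest transcript as the length, Il17f came second at 3174 per kb and Il24, at 1536 per kb, passed Il17a. Against 23 other T cell cytokine genes with a mean of at least 10, Il22 came second of 31 after Il13, a Th2 cytokine at 4510 per kb, while Il21 came 18th and Il9 25th. The interferon gene Ifng, the Th1 cytokine, stood at 873 per kb, between Il24 and Il10.

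**Figure D1:**
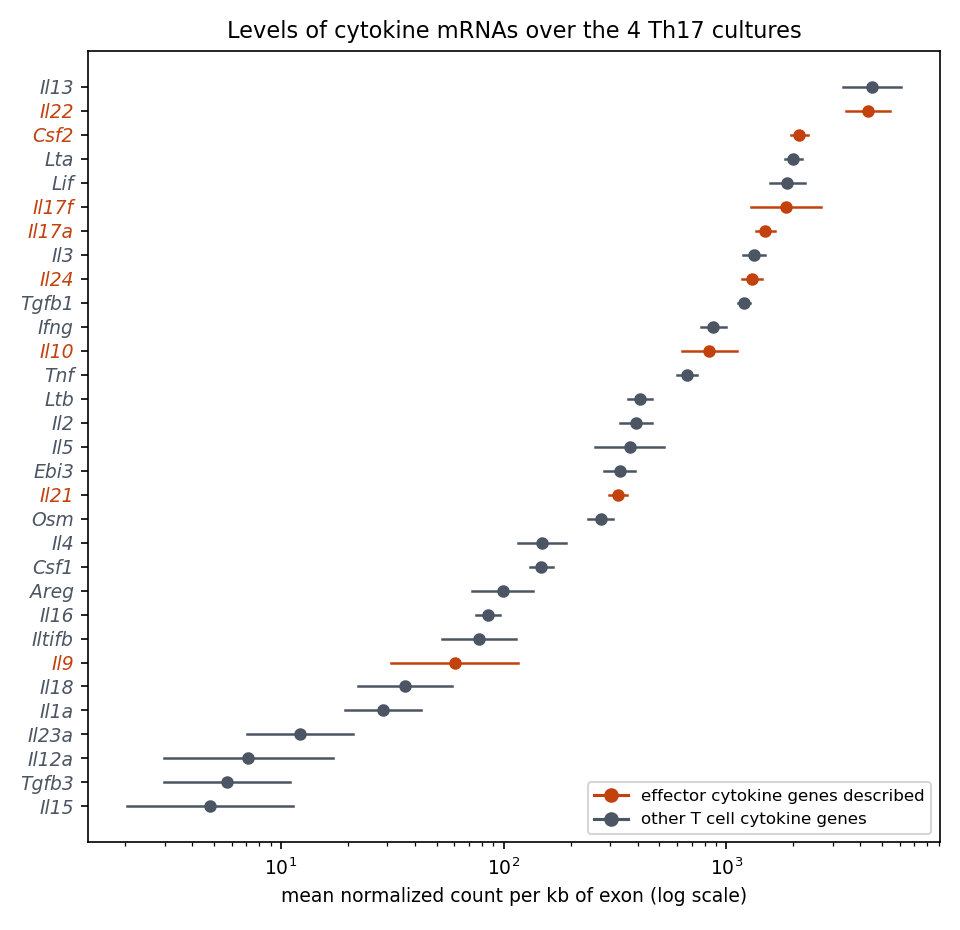
Mean normalized count per kb of exon (log axis) of the 8 effector cytokine genes and 23 other T cell cytokine genes, over all 4 cultures. Bars are approximate 95% intervals of the mean. Il13 and Il22 lead at 4510 and 4347 per kb, and Il9 is the lowest of the 8 at 60.3 per kb.

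Il17a encodes IL-17A and lies on chromosome 1, 20730905 to 20734496 (mm10, as for all genes here; plus strand, 3 exons). The deposited mean and fold change imply group means of 2176 normalized counts in sgAdarb1 cultures and 1337 in empty-vector cultures, taking the groups as equal in weight. The authors' deposited table lists a log2 fold change of 0.70 ± 0.15 (SE), an unadjusted p of 2.90e-06, the smallest of all 29383 genes, and an adjusted p of 0.0709 by DESeq2. In all, 3 genes shared that adjusted p. The fold change was 1.63, with a 95% interval from 1.33 to 1.99. Alone at this SE, Il17a would have had to reach 0.72 on the log2 scale to pass at an adjusted p of 0.05. In bulk samples, fewer cells of a type and less RNA per cell cannot be told apart.

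Il17f encodes IL-17F, which pairs with IL-17A, and lies 42649 bases beyond Il17a on the opposite strand (20777146 to 20790617). The implied group means were 5104 normalized counts in sgAdarb1 cultures and 2373 in empty-vector cultures. The authors' deposited table lists 1.11 ± 0.53 (log2, SE), an unadjusted p of 0.0383 and an adjusted p of 1.00 by DESeq2. The estimate was 2.15-fold with an interval from 1.04 to 4.44, so it was larger and less certain than that of Il17a. To pass alone Il17f would have needed 2.55 on the log2 scale, and 0.49 had its SE been that of genes of like mean.

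These were 2 of the 8 genes with an unadjusted p below 0.05, against 0.208% of all genes (61 of 29383, 29 of them positive, or 0.0987%, and 32 negative, or 0.109%). The 8 genes were chosen with these results known, so nothing is read from that count. The Wald statistics of genes with a mean of at least 50 spread less than a standard normal does (robust spread 0.563). The deposited SEs, and the intervals given here, may thus be too wide for many genes, which was not tested. The number past an adjusted p of 0.05 was 0 of 8, as for all genes (0%), by DESeq2 in the authors' deposited table. Under 6 other ways of adjusting or scaling, Il17a passed as 1 of the 8. The share of all genes that passed was 0.0206% when only genes with a mean of at least 10 were adjusted, 0.0187% with a mean of at least 50, 0.00601% over protein-coding genes, 0.0102% at a threshold of 0.1, 0.0681% with scaled Wald statistics and 0.00687% with trends on GC and length removed. The median log2 fold change of the 8 was 0.23, 5 positive and 3 negative, beside 0.00 for the 14547 genes whose mean reached 10. For Adarb1, the gene targeted by the guide, the authors' deposited table shows 0.11 ± 0.12 at a mean of 2130. A cut need not lower mRNA, so this value does not check the labels.

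Il22, on chromosome 10 (118204942 to 118210047, plus strand, 5 exons), was the most abundant of the 8. The implied group means were 5480 normalized counts in sgAdarb1 cultures and 4171 in empty-vector cultures. The estimate of 0.39 ± 0.34 (log2, SE; the authors' deposited table) had an interval from -0.26 to 1.05, which holds 0 and also a 2-fold difference. A near copy, Iltifb, lies 79581 bases away, and its transcript is 97.3% identical to that of Il22 over 1111 aligned bases. The authors' deposited table puts Iltifb at 0.24 ± 0.57 and at a mean of 89.0, which is 1.85% of that of Il22. How reads shared by the copies were counted is not stated in the labels, so the split between them is uncertain.

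Il21 and Csf2 were measured precisely and lay near 0. Il21 (chromosome 3, 37222759 to 37232636, minus strand) had implied means of 1752 in sgAdarb1 cultures and 1683 in empty-vector cultures, and 0.06 ± 0.13 (log2, SE) in the authors' deposited table. Csf2 (chromosome 11, 54247271 to 54249667, minus strand) had implied means of 1659 in sgAdarb1 cultures and 1750 in empty-vector cultures, and -0.08 ± 0.13 (log2, SE) in the authors' deposited table. Their 95% intervals, from -0.20 to 0.32 for Il21 and from -0.33 to 0.18 for Csf2, leave out the estimate of Il17a. An antisense gene overlaps each of them on the other strand, and the authors' deposited table lists it at 0 for Il21 and at 5.95 normalized counts for Csf2.

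The IL-10 family genes Il24 and Il10 stand 132390 bases apart on chromosome 1 (130882074 to 130887454, minus strand, and 131019845 to 131024974, plus strand), and both estimates were negative. Il24 had implied means of 1746 in sgAdarb1 cultures and 1885 in empty-vector cultures, with an estimate of -0.11 ± 0.15 (log2, SE) in the authors' deposited table and an interval from -0.41 to 0.19. Il10 had implied means of 1027 in sgAdarb1 cultures and 1168 in empty-vector cultures, with an estimate of -0.19 ± 0.42 (log2, SE) in the authors' deposited table. As a fold its interval ran from 0.499 to 1.55, so it covers both a large loss and a moderate gain. Il9 (chromosome 13, 56479277 to 56482246, minus strand) was scarce, with implied means of 37.5 in sgAdarb1 cultures and 27.2 in empty-vector cultures. The estimate of 0.46 ± 0.96 (log2, SE; the authors' deposited table) had an interval from -1.42 to 2.35, and a difference of 4.61 would have been needed to pass alone.

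The intervals of Il21, Csf2 and Il24 did not overlap that of Il17a, which ran from 0.41 to 1.00 on the log2 scale. The difference between genes was not tested, since all values come from the same libraries and their covariance is not in the table.

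**Figure D2:**
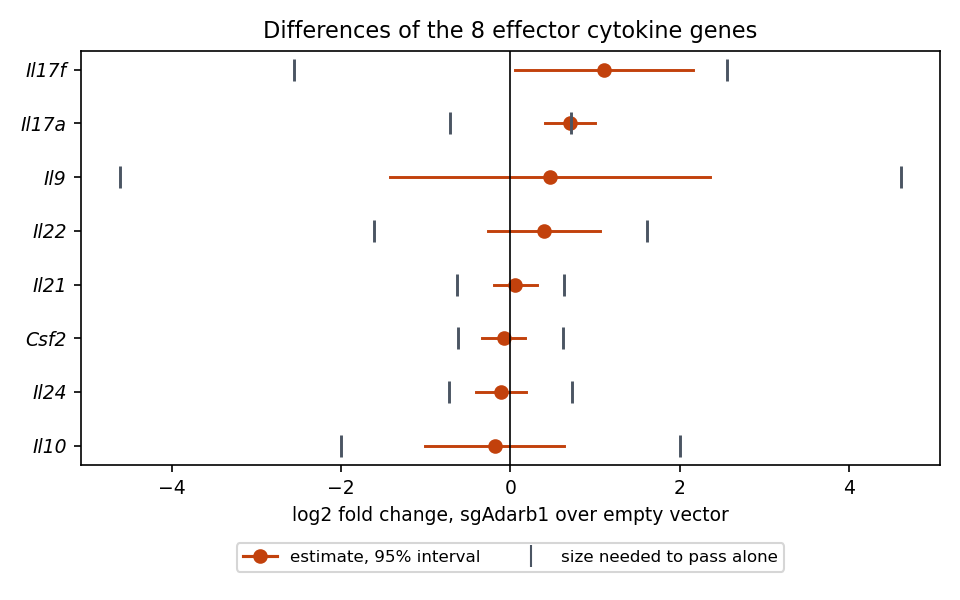
Log2 fold change of sgAdarb1 over empty vector for the 8 genes with 95% intervals, and, as vertical marks, the size that a gene would need at its SE to pass alone at an adjusted p of 0.05. Il17a at 0.70 falls just short of its mark at 0.72, and the marks of the others lie far from their estimates.

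The 8 genes differed in precision. The SE was 0.13 for Csf2 and Il21, 0.15 for Il17a and Il24, 0.34 for Il22, 0.42 for Il10, 0.53 for Il17f and 0.96 for Il9 in the authors' deposited table. Each was set beside the running median SE of the genes nearest in mean. Csf2 and Il21 stood at 1.01 and 1.02 times that median, and Il17a, Il24 and Il9 at 1.2, 1.21 and 1.25 times. Il10, Il22 and Il17f stood at 2.78, 3.45 and 5.19 times. The spread of SEs around the median was narrow, so that Il17a was at percentile 99.2 among the genes nearest in mean and Il24 at percentile 99.4, while Csf2 was at percentile 62.5 and Il21 at percentile 80.2. An SE of at least 2 times the median was found in 3 of the 8 genes, against 0.811% of genes with a mean of at least 10.

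Of 3664 genes whose mean reached 1000, 30 (0.819%) were that wide, and none lay between 1.5 and 2 times. Of the 7 cytokine genes at that level, 3 were among the 30: by this ratio Il17f was number 3, Il22 number 9 and Il10 number 19. Among the other T cell cytokine genes, Il13, at 4.67 times, and Lif, a cytokine of the IL-6 family, at 3.02 times, were also there, named after their values were seen. So was Gata3, the Th2 lineage factor, at 3.74 times. The widest of all was Igkc, an immunoglobulin light chain gene of B cells, and mitochondrial transcripts and Mki67, a proliferation marker, were also among the 30. DESeq2 draws most genes toward a common trend of spread and leaves genes far above it at their own estimate. The gap between 1.5 and 2 times is therefore not read as a natural class of genes. What the other genes among the 30 share with the cytokines was not tested.

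Counting error, computed with normalized counts taken as reads, was a small part of each SE. From the implied group means, counting alone would give an SE of 0.04 for Il17a and 0.03 for Il17f, so the deposited SEs were 4.23 and 21 times larger. Even for Il9, with its low level, counting gave 7.13% of the squared SE. Taken as spread between libraries, the remainder corresponds to a coefficient of variation of 10.1% for Il17a, 8.76% for Il21 and 8.65% for Csf2, against 23.2% for Il22, 28.7% for Il10 and 36.9% for Il17f. For Il9 it was 64.3%. These values assume that both groups had libraries of like size and that normalized counts equal reads. Depths per library were not used, so the part of sequencing depth in the SEs was not tested. The values derive from SEs that DESeq2 estimates with information shared across genes. For genes near the running median they may thus mirror other genes more than their own libraries.

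**Figure D3:**
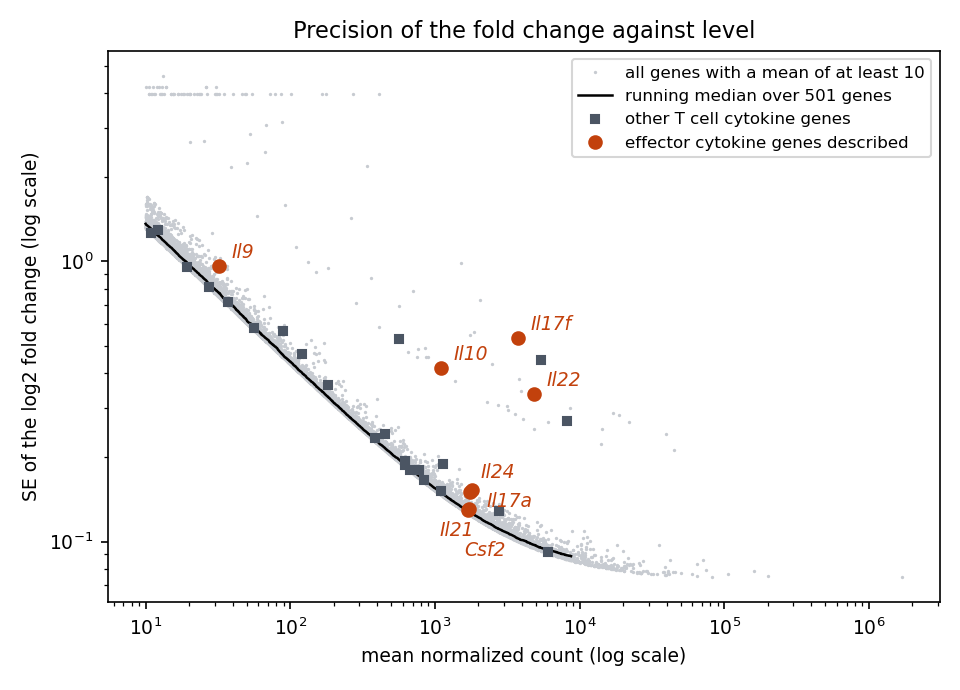
SE of the log2 fold change against mean normalized count (both log axes) for all genes with a mean of at least 10 in grey, with the running median over genes of like mean as a line and other T cell cytokine genes as squares. Il21, Csf2, Il17a and Il24 lie on or just above the line, while Il10, Il22 and Il17f lie 2.78, 3.45 and 5.19 times above it.

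Neighbouring genes had these values. Next to Il17f, 12350 bases away, Mcm3, a subunit of the replicative helicase, was at -0.05 ± 0.09 (mean 5404; the authors' deposited table), and on the other side of Il17a the nearest protein-coding gene with a mean of at least 10, Ly96, lay 4021 kb away. Il3, a growth factor for myeloid progenitors 15635 bases from Csf2, was at -0.03 ± 0.17, and Il2, the T cell growth factor near Il21, at -0.15 ± 0.24 in the authors' deposited table. Mapkapk2, a p38 pathway kinase beside Il10, was at 0.05 ± 0.09, and Fcmr, an IgM receptor 1282 bases from Il24, at -0.24 ± 0.49 in the authors' deposited table. Mdm1, on the far side of Il22 from its copy, was at -0.17 ± 0.34 in the authors' deposited table. The 12 neighbours outside the 8 genes lay between -0.24 and 0.67, and 0 of the 12 had an unadjusted p below 0.05, against 0.208% of all genes, so nothing is read from this count.

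**Figure D4:**
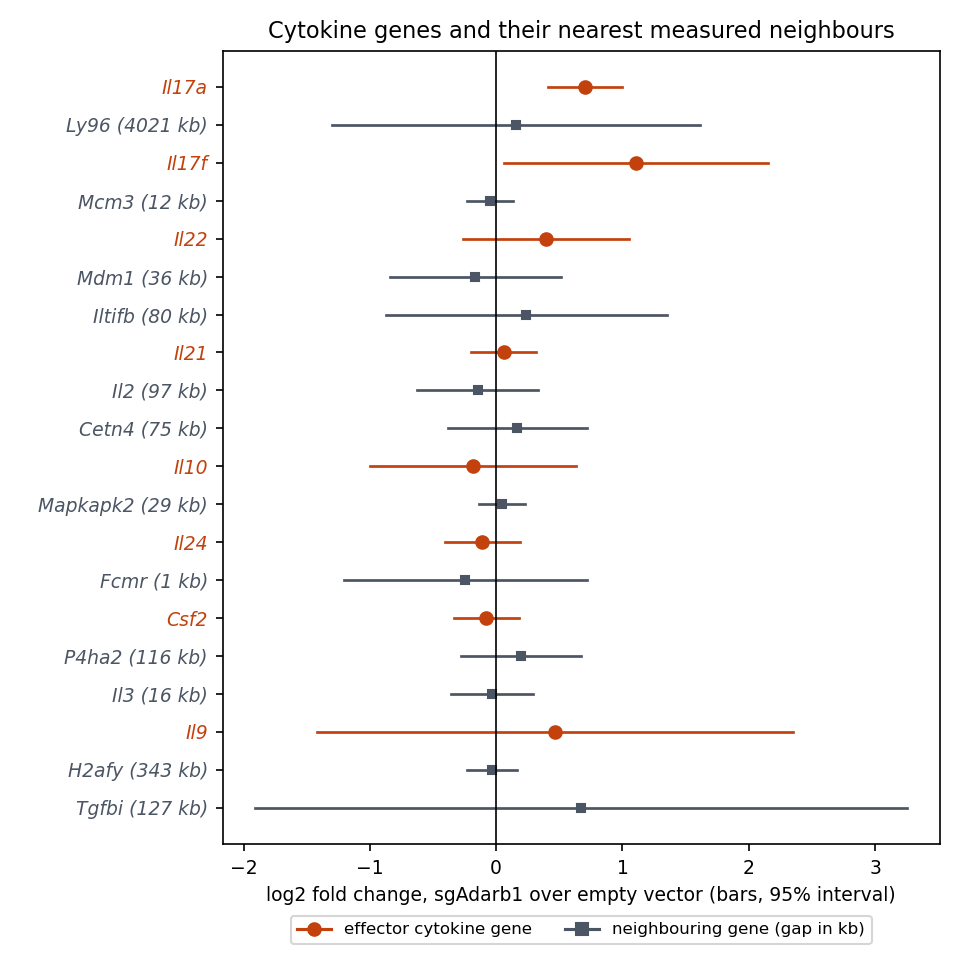
Log2 fold change of sgAdarb1 over empty vector, with 95% intervals, for the 8 cytokine genes and the nearest protein-coding genes on either side with a mean of at least 10, with the gap in kb. Il17a and Il17f are the only genes plotted whose interval leaves out 0.

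The rest of the pathway was read from lists chosen by name. Of 23 other T cell cytokine genes with a mean of at least 10, 0 had an unadjusted p below 0.05. The share was 0.208% of all genes, and 60 of the 14547 genes with such a mean, so nothing is read from this count. There were 11 positive and 12 negative, with a median of -0.02. The 2 of smallest p were Tgfb1, which encodes TGF-β1, at 0.16 ± 0.09, and Osm, an IL-6 family cytokine, at 0.27 ± 0.19 in the authors' deposited table. Their summed implied means were 29867 in sgAdarb1 cultures and 30347 in empty-vector cultures, while those of the 8 genes were 18981 in sgAdarb1 cultures and 14393 in empty-vector cultures, mostly through Il17f, Il22 and Il17a.

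Of 20 transcription factor genes that act on cytokine loci, 12 were positive and 8 negative (median 0.01). The share with an unadjusted p below 0.05 was 0.208% of all genes, and 60 of the 14547 with a mean of at least 10. Of the 20, 1 was below it. That was Junb, an AP-1 subunit of Th17 cells, which the authors' deposited table puts at 0.18 ± 0.09 (unadjusted p = 0.0455, adjusted p = 1.00, DESeq2). The 10 genes of receptors that induce the cytokines were 7 positive and 3 negative (median 0.07), and the 2 of smallest p were Il21r at 0.10 ± 0.09 and Il27ra at 0.12 ± 0.20 in the authors' deposited table. Of 13 receptor genes for the 8 cytokines, 8 had a mean of at least 10, 6 positive and 2 negative (median 0.06), with Il10ra at -0.20 ± 0.18 and the shared chain gene Il2rg at 0.11 ± 0.10 in the authors' deposited table. The 10 regulators of cytokine mRNA decay were 5 positive and 5 negative (median 0.00), with Zfp36l1, a decay factor that binds AU-rich elements, at 0.15 ± 0.16 and Elavl1, which encodes the stabilising protein HuR, at -0.08 ± 0.10 in the authors' deposited table. No member of the lists on receptors and decay had an unadjusted p below 0.05, against 0.208% of all genes. With lists this short, nothing is read from these counts.

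The label of the cells was checked against markers. All 8 markers of helper T cells of this class were measured, with means from 229 (Il1r1) to 15286 (Cd4), 7 positive and 1 negative, and summed implied means of 29484 in sgAdarb1 cultures and 27943 in empty-vector cultures. Of the Th2 cytokine genes, the authors' deposited table has Il13 at 5434 normalized counts, above each of the 8 genes, Il5 at 566 and Il4 at 183. Of 9 mast cell and basophil markers, which include sources of Il9 and Csf2, 3 had a mean of at least 10, with summed implied means of 83.4 in sgAdarb1 cultures and 144 in empty-vector cultures. Among them Cpa3, a mast cell protease at a mean of 28.7, was at -5.66 ± 1.26 in the authors' deposited table. Its adjusted p by DESeq2 was 0.0709, the same as that of Il17a. The authors' deposited table puts Kit, the stem cell factor receptor and most abundant of the 3, at 0.03 ± 0.54 and Hdc, which makes histamine, at -0.55 ± 0.99. Of the markers below that minimum mean, Cma1 was at -4.70 ± 1.98 (mean 8.2) and Gata2 at 0.00 ± 1.69 (mean 5.97). Of 6 myeloid markers, 4 had a mean of at least 10, all positive, with summed implied means of 128 in sgAdarb1 cultures and 84.0 in empty-vector cultures. Their errors were wide, at means from 11.7 to 59.8. The authors' deposited table puts Lyz2 at 0.94 ± 1.16, Csf1r at 1.35 ± 1.32, Cd14 at 0.50 ± 1.02 and Cd68 at 0.43 ± 0.56. Of 4 markers of γδ T cells, which can also make IL-17, 3 were in the table, with sums of 202 in sgAdarb1 cultures and 189 in empty-vector cultures. The authors' deposited table puts Trdc at 0.31 ± 0.45, Sox13 at -0.06 ± 1.21 and Blk, with 85.9 of the summed mean of 195, at -0.12 ± 3.97. The summed implied means of 4 B cell markers were 1027 in sgAdarb1 cultures and 1135 in empty-vector cultures. Of 5 CD8 T and NK cell markers, 3 had a mean of at least 10, without Ncr1 and Klrb1c of NK cells. Their sums were 750 in sgAdarb1 cultures and 627 in empty-vector cultures. The authors' deposited table puts Cd8a at 0.74 ± 0.71, Cd8b1 at 0.20 ± 0.30 and Eomes at -0.41 ± 0.36. Of 3 regulatory T cell markers, Foxp3 was at -0.59 ± 0.73, Ikzf2 at 0.27 ± 0.25 and Il2ra, which activated T cells also express, at 0.04 ± 0.08 in the authors' deposited table. The part of these cells in the cytokine differences was not tested.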

How the data were processed

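RNA was sequenced in 4 cultures, grouped by the sample titles. Per the submitters' processing notes, the authors used STAR 2.6.1a, featureCounts and DESeq2 1.18.1 with mm10. The annotation, strand setting and model formula were not given in the sources used here. The table that the authors deposited holds, as its headers name them, DESeq2's base mean (a signal: counts divided by size factors, averaged over libraries), a log2 fold change, its SE and the Wald score, which equals their ratio. The deposited p-value is two-sided, and the adjusted p equals a Benjamini-Hochberg adjustment over 29383 genes. The table's 4 columns of values per library match no sample label and were not used, so depths per library were not used either and no fit was repeated.

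All 55450 identifiers matched GENCODE M21 (mm10), the source of symbols, positions and lengths; promoters are from RefSeq (GRCm38.p6). From the deposited values, Python 3.11.15 with numpy 2.4.6, pandas 2.3.3 and scipy 1.17.1 gave 95% normal intervals, implied group means (2 times the mean, split by the fold change), a counting SE from those means, levels per kb and a running median SE over genes of like mean. The transcript pair was aligned with Biopython 1.88. The functions were tested on simulated data. Genes named were the 8 members, the nearest protein-coding genes with a mean of at least 10, Adarb1, and of each list those with an unadjusted p below 0.05 or else the 2 of smallest p; other genes were named after their values were seen. Members, lists and rules were chosen with earlier results of these data known. Nothing says more of replicates than the 2 donors, and p-values measure only the spread between these libraries.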

Additional observations from a re-analysis of the deposited data

How the results depend on the processing

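Il17a was the one cytokine gene whose call depended on the setting. Against 0 of 8 genes past the threshold as deposited, 1, Il17a at 0.70 (log2), passed when adjusted over genes whose mean reached 10 (adjusted p = 0.0351) or 50 (adjusted p = 0.031) or over protein-coding genes (adjusted p = 0.0483), since fewer genes were tested. It also passed, as 1 of 8, at a threshold of 0.1, with Wald statistics scaled by their robust spread of 0.563, which takes most genes as not differing (adjusted p = 2.88e-12), and, at 0.79, after removal of trends on GC and length (adjusted p = 0.00243). Over the genes adjusted in each, these settings called 3, 2, 1, 3, 20 and 1. With trends removed, only genes whose mean reached 10 were adjusted. Il17a did not pass with fold changes centred on the median (0.70, adjusted p = 0.0695). A minimum SE at that of genes of like mean could change none of the 8, whose SEs all exceed it. The other 7 genes passed under none of the settings run, and none of the 8 changed sign; the closest was Csf2, at -0.01 with the trend removed. At a mean of at least 50 Il9 was not among the genes adjusted.

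By the longest transcript, 4 of the 8 genes kept their place in the order of levels, and without division by length 3 did. The count of 3 genes with a wide SE was the same with a narrower and a wider running window. The wider and narrower windows, the minimum SE, and the settings of list medians were chosen after the data were seen. With the trend removed the median of other T cell cytokines turned to 0.01, and with centring that of decay regulators to -0.00. No paired analysis was possible because no library column in the table matches a sample label. Fits with edgeR or DESeq2, groups from the treatment tag and omission of a culture were not run, as they need those columns. The deposited SEs, not counting depth, set what was detectable.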
